A study of Mus musculus with 3 samples.

Results

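G protein-coupled receptors (GPCRs) are membrane proteins that cross the membrane several times and pass an outside signal to G proteins inside the cell. The genes described here encode receptors for complement fragments, nucleotides, prostanoids, lysophospholipids, protons and amines, together with adhesion receptors and Gpr-numbered genes, and leave out chemokine receptors. They were chosen by gene symbol alone, through name stems such as Adgr, P2ry and Gpr followed by a digit, so no measured value entered the choice. The stems cover only part of all GPCRs. They matched 73 of the 14811 genes in the deposited table.

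The levels come from 3 RNA-seq libraries of macrophages sorted by flow cytometry from the kidneys of 3 C57BL/6J mice, mouse 1 to mouse 3, which form a single group. All mice had received phosphate-buffered saline (PBS) intravenously 1 h before the kidneys were taken, and there was no second treatment, genotype or time. The labels give neither the age nor the sex of the animals, nor the markers used for the sort. A level below is a normalised read count, which is the reads of a gene divided by a size factor for the library, and errors are SD over n = 3 mice. Where 2 genes are compared, the level is divided by the length of the exons in kb.

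In macrophages, receptors of this class sense tissue damage and inflammation. Anaphylatoxins from complement, nucleotides leaking from injured cells, leukotrienes and acid all act through them, and many of them steer migration. Most signal through the inhibitory, stimulatory, Gq or G12/13 families of G proteins, which set cyclic AMP, calcium and the actin skeleton.

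The libraries held 50646558 to 56718534 reads over the listed genes. Of 12 macrophage markers, among them the receptor gene Adgre1, 11 were at 1000 or more normalised reads in every mouse, and Itgam, which encodes CD11b, was the exception with 1021, 446 and 5.64 in mice 1, 2 and 3. Of other markers, the deposited table held 4 of 11 listed for T and NK cells and 2 of 10 for neutrophils. It held 1 of 8 for mast cells, basophils and eosinophils, 6 of 7 for dendritic cells and 3 of 7 for platelets. Among these, the T cell gene Cd3e, the neutrophil gene S100a9 and the mast cell gene Ms4a2 were at 0 in every mouse. So were the dendritic cell gene Cd209a and the platelet integrin Itga2b, while the T cell gene Cd4 had 1.61, 2.77 and 113. Pf4, a chemokine gene of the platelet list, was at 1000 or more in every mouse. Tubular epithelial transcripts were present, and the sum of 10 marker genes was 42226, 201518 and 18564 in mice 1, 2 and 3. The sum of 7 mesangial, pericyte and fibroblast markers was 962, 155 and 201, of which Dcn alone made up 906, 0.555 and 154. The B cell gene Cd79b had 227, 3940 and 6359. Of the dendritic cell genes, Clec9a had 3421, 1330.3 and 1462, Batf3 had 1269, 1794 and 2456, and Xcr1 had 534, 2.77 and 407. Others of that list went the other way, with Flt3 at 4.84, 0 and 0 and Zbtb46 at 0, 0 and 16.2. In such bulk libraries, fewer cells of a type and less RNA per cell cannot be told apart.

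The 73 receptor genes took 0.863%, 0.519% and 0.747% of the reads in mice 1, 2 and 3. A few genes held nearly all of this, and the 5 highest took 64.5% ± 4.57 of the receptor reads and the 10 highest 86.7% ± 4.87. Of the 73, 11 genes (15.1%) were at 1000 or more normalised reads in every mouse, against 14.7% of all listed genes, a share near the background. A further 18 were at 10 or more in every mouse, so 29 genes in all reached 10 throughout (39.7%), against 44.4% of all listed genes. In 25 genes (34.2%, against 39.0% of all) the level reached 10 in some mice only. The last 19 comprised 10 genes that stayed below 10 in every mouse and 9 at 0 in every mouse (12.3%, against 6.59% of all). Without mouse 2, the count at 0 was 19 (26.03%, against 11.9% of all).

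**Figure D1:**
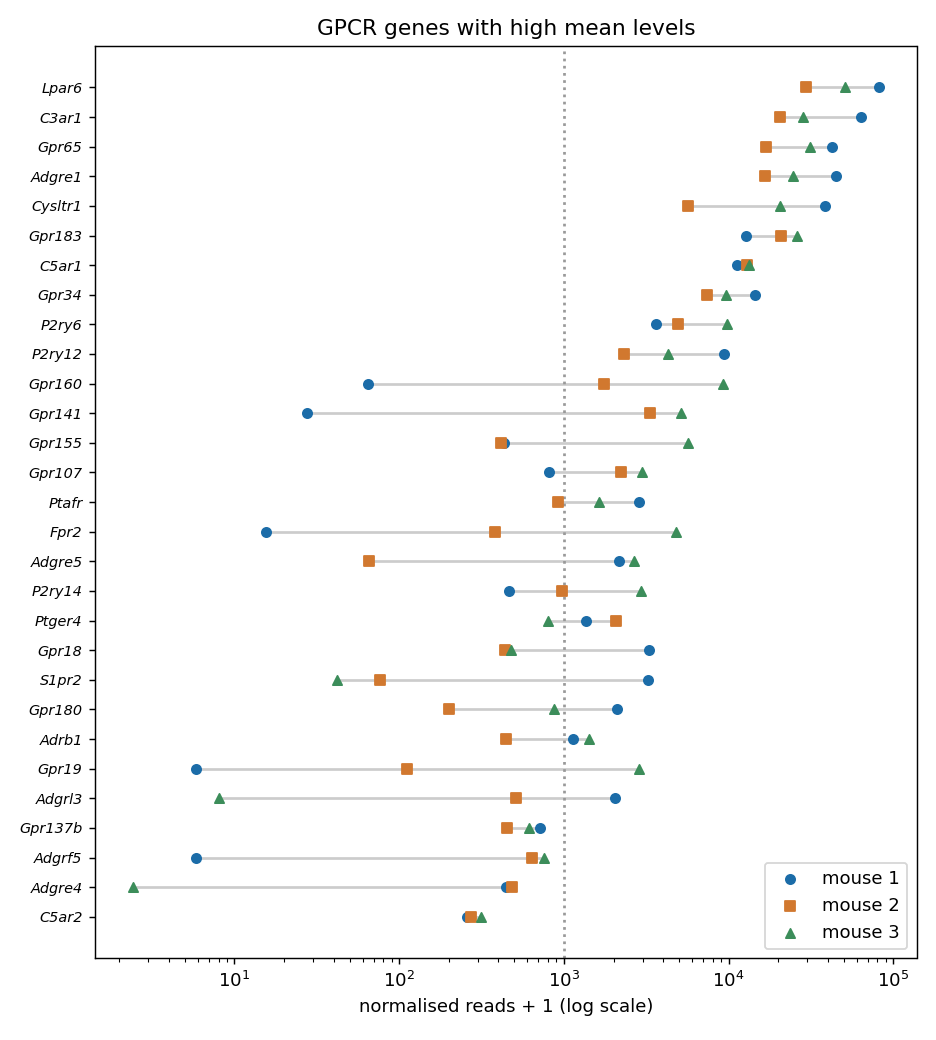
Normalised reads plus 1 on a log axis for 29 of the 30 GPCR genes with the highest means, each point 1 mouse and each grey line the span of the 3 mice, with the dotted line at 1000. The 10 uppermost genes lie to the right of the dotted line in every mouse, and genes such as Fpr2, Gpr19 and Adgrl3 span more than 100-fold.

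Each gene was also set against the median gene of its library, per kb of exon, with limma across 13792 genes above 0 in any library. The receptor list held 64 such genes. Of these, 13 (20.3%) lay above the median, against 19.2% of all genes tested, and 20 (31.3%) lay below it, against 17.1% of all genes tested, while 31 were not separated from it. When only genes with a mean of 10 or more were tested, 2 of 49 receptor genes lay below (4.08%), against 3.59% of all 11603 genes tested, and with a pseudocount of 10 it was 13 (20.3%), against 8.73%. The genes below the median were thus mainly genes with very few reads, 15 of the 20 having a mean under 10. The median receptor gene lay at -1.16 log2 units, against -0.34 for all genes tested. The 20 genes below the median were at a mean of at most 100.2 normalised reads, and the 13 genes above it had means between 1403 and 54018. Below, fits with a mouse left out use the other mice only. A call gained by leaving out the mouse furthest from the rest depends on that choice and is no separate support.

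**Figure D2:**
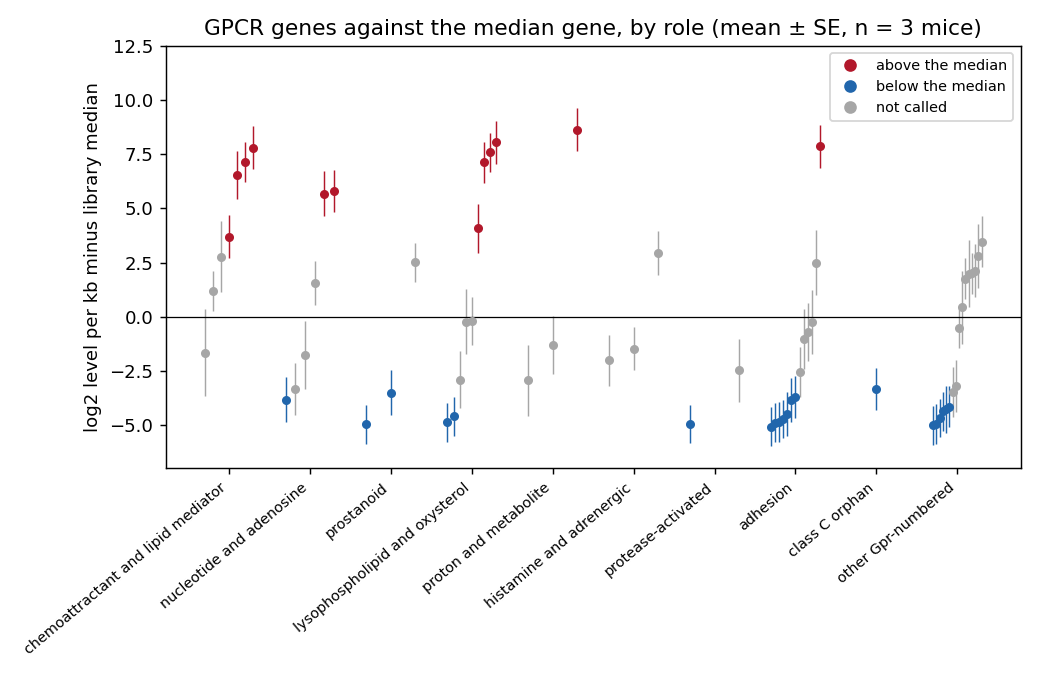
Log2 level per kb of exon minus the library median (vertical axis) for the tested GPCR genes described here, grouped by role (horizontal axis). Points are means over 3 mice and bars are limma's moderated SE. Red points lay above the median and blue points below it by limma, and every role apart from the prostanoid, amine, protease-activated, class C and other Gpr-numbered groups holds at least 1 red point.

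Receptors for complement fragments and other chemoattractants came closest to being read throughout, with 6 of 8 genes at 10 or more in every mouse. The counts by role that follow stand against 19.2% above and 17.1% below the median gene among all genes tested. Of the 8, 4 lay above the median gene, 0 lay below, 3 were not separated and Cysltr2, a leukotriene receptor, was at 0 in every mouse. C3ar1, the receptor for the anaphylatoxin C3a, had 63594, 20519.9 and 28368 normalised reads in mice 1, 2 and 3. Mouse 1 stood above both others, and the level lay 7.80 ± 1.00 (SE) log2 units above the median gene (adjusted p = 0.0130, limma). C5ar1, which binds C5a and drives chemotaxis, had 11283, 13011 and 13336. The 3 values lay close together, with a highest mouse only 1.182-fold above the lowest, or 1.51-fold with each library scaled to the same total. The gene was 7.13 ± 0.91 (SE) log2 units above the median gene (adjusted p = 0.0129, limma).

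C5ar2, a second C5a receptor that does not couple to G proteins in the usual way, had 258, 270.3 and 312 normalised reads. It was as even as C5ar1 and was not separated from the median gene (log2 difference 1.20, adjusted p = 0.344, limma). Per kb of exon, the log2 ratio of C5ar1 to C5ar2 was 5.90, 6.04 and 5.87 in mice 1, 2 and 3, an SD of 0.09. This was the smallest SD among the 26 ratios computed here. The ratio of C3ar1 to C5ar1, at 1.75, -0.09 and 0.34 log2 units, had no common direction.

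Cysltr1, a receptor for cysteinyl leukotrienes, had 38640.4, 5679 and 20461 normalised reads. It was lowest in mouse 2, and lay 6.53 ± 1.12 (SE) log2 units above the median gene (adjusted p = 0.0155, limma). Ptafr, the receptor for platelet-activating factor, had 2857, 921 and 1637, which placed it 3.69 ± 1.00 (SE) log2 units above (adjusted p = 0.0352, limma). The call for Ptafr was lost in 4 of 10 alternatives, among them those without mouse 1 (adjusted p = 0.150, limma) and without mouse 3 (adjusted p = 0.0972, limma), with a range of 0.0152 to 0.150 over all 10.

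The formyl peptide receptors, which sense bacterial and mitochondrial peptides, differed widely between mice. Fpr2 had 14.5, 382 and 4796 normalised reads in mice 1, 2 and 3, and Fpr1 had 1.61, 0 and 781. Both were highest in mouse 3, and neither was separated from the median gene (adjusted p = 0.229 for Fpr2 and 0.549 for Fpr1, limma). Without mouse 1, Fpr2 lay above the median (log2 difference 4.72, adjusted p = 0.0267, limma), and without mouse 3, Fpr1 lay below it (log2 difference -4.70, adjusted p = 0.0269, limma). The first fit removed the lowest mouse of Fpr2, and the second the only mouse of Fpr1 above 1.61. Neither call thus stands apart from the choice of mouse. The 10 alternatives gave adjusted p-values of 0.0267 to 0.794 for Fpr2 and 0.0269 to 0.962 for Fpr1. Of the 10 listed neutrophil markers, only 2 were in the deposited table. S100a9 was at 0 in every mouse and Csf3r had 19.4, 3.33 and 0. The part of neutrophil RNA in Fpr1 and Fpr2 was not tested.

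Among receptors for nucleotides and adenosine, which respond to ATP breakdown products and UDP sugars, 2 of 6 genes lay above the median gene and 1 below. P2ry6, the UDP receptor linked to phagocytosis in microglia, had 3606, 4932 and 9812 normalised reads and lay 5.80 ± 0.95 (SE) log2 units above the median gene (adjusted p = 0.0155, limma). P2ry12, an ADP receptor known from platelets and microglia, had 9357, 2328 and 4294 and lay 5.69 ± 1.03 (SE) units above (adjusted p = 0.0155, limma). The mice ranked these 2 genes differently. P2ry12 exceeded P2ry6 per kb in mouse 1 alone (log2 ratio 1.56), and was below it in mice 2 and 3 (log2 ratios -0.90 and -1.01). Of the 3 platelet genes at hand, Pf4 had 6359.8, 6796 and 5289.6, Ppbp had 2.42, 1.11 and 1698, and Itga2b was at 0 in every mouse. None of them ranked the mice as P2ry12 did, and the part of platelet RNA in P2ry12 was not tested.

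P2ry14, the receptor for UDP-glucose, had 466, 974 and 2924 normalised reads and was not separated from the median gene (adjusted p = 0.278, limma). The ADP receptors P2ry13 and P2ry1 were read in mouse 2 alone, at 94.9 and 57.7, and were at 0 in both other mice. P2ry1 lay below the median gene (log2 difference -3.83, adjusted p = 0.0347, limma), a call that was lost in 4 of 10 alternatives, among them those without mouse 1 (adjusted p = 0.113) and without mouse 3 (adjusted p = 0.116), with a range of 0.0265 to 0.116. P2ry13 was not separated (log2 difference -3.36, adjusted p = 0.0742, limma) but lay below without mouse 2 (log2 difference -4.75, adjusted p = 0.0393, limma), with a range of 0.0360 to 0.222 over 10 alternatives. The call without mouse 2 was fixed in advance, since no other mouse had reads of P2ry13. Adora3, an adenosine receptor, had 0.806, 14.98 and 656, nearly all of it in mouse 3. Of its 3729 exon bases, 779 are shared with Tmigd3 on the same strand, so reads there cannot be assigned to Adora3 alone. Entpd1, the ectoenzyme CD39 that removes ATP and ADP, had 12471, 2362 and 6687. It ranked the mice as P2ry12 did, an order held by 28.6% of all genes at 1000 or more in every mouse. Nt5e, or CD73, which makes adenosine from AMP, had 0.806, 590.5 and 3.52.

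Lipid receptors of the lysophospholipid and oxysterol kind included the gene with the highest read count of the whole set. Of 9 genes, 4 lay above the median gene and 2 below. Lpar6, a receptor for lysophosphatidic acid, had 81979, 29457 and 50618 normalised reads, ranked 57 among all 14811 genes by mean, and lay 8.05 ± 0.99 (SE) log2 units above the median gene (adjusted p = 0.0125, limma). Gpr183, or EBI2, which guides leukocytes along oxysterol gradients, had 12812, 20916 and 26132 and lay 7.58 ± 0.92 (SE) units above (adjusted p = 0.0125, limma). Mouse 1 was lowest for Gpr183 and highest for Lpar6. Gpr34, a receptor for lysophosphatidylserine, had 14437, 7357 and 9688 and lay 7.12 ± 0.96 (SE) units above (adjusted p = 0.0131, limma).

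The enzyme Ch25h, which carries out the first step towards the oxysterol ligand of Gpr183, had 33351, 14869.7 and 33839 normalised reads. Cyp7b1, the enzyme of the second step, had 0.806, 176 and 0, and Hsd3b7, which inactivates the ligand, had 0, 163 and 0.705. Both were thus high in mouse 2 alone, the mouse with the largest sum of tubular markers, and the part of those cells in these values was not tested.

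Gpr18 had 3298, 437 and 473 normalised reads, highest in mouse 1, and lay 4.09 ± 1.13 (SE) log2 units above the median gene (adjusted p = 0.0368, limma). This call was lost in 5 of 10 alternatives, among them those without mouse 1 (adjusted p = 0.172) and without mouse 2 (adjusted p = 0.0832), with a range of 0.0146 to 0.172. The sphingosine-1-phosphate receptor S1pr2 had 3234, 74.9 and 40.9, and S1pr1, which guides lymphocyte egress, had 0, 1.11 and 0.705. S1pr2 was therefore carried by mouse 1, and S1pr1 was below the floor of 3 reads in every mouse. The other lysophosphatidic acid receptors were low, with Lpar3 at 0, 188 and 0.705 and Lpar2 at 0, 11.1 and 0. Lpar3 lay below the median gene only without mouse 2 (adjusted p = 0.0393, limma, against 0.133 with all mice and 0.0393 to 0.365 over 10 alternatives). That fit left only values of 0 and 0.705, so its direction was fixed in advance. Gpr132 had 279, 86.0 and 18.3.

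Gpr65 was the receptor gene with the highest level per kb. It encodes an acid sensor that couples to the stimulatory G protein, and had 42645, 16955 and 31370.3 normalised reads. Per kb this was 20612, 8195 and 15162, rank 99 among all genes with an exon length, and 8.63 ± 0.99 (SE) log2 units above the median gene (adjusted p = 0.0121, limma). Of its 2069 exon bases, 511 are shared with an antisense gene, Gm47566, whose reads cannot be told apart from its own. The 4 other genes of the proton and metabolite group were low or at 0. Gpr31b had 0, 94.9 and 47.2, and Hcar2, a receptor for niacin and ketone bodies, had 0, 0 and 173. Without mouse 3, Hcar2 lay below the median gene (adjusted p = 0.0176, limma, against 0.202 with all mice and 0.0176 to 0.696 over 10 alternatives). Mouse 3 was the only mouse with reads of Hcar2, so that call was fixed by its removal. Gpr84, a receptor for medium-chain fatty acids, and Gpr35 were at 0 in every mouse.

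Receptors for amines, which answer adrenaline, noradrenaline and histamine, were read at mid to low levels in the genes described here. Adrb1, a beta-adrenergic receptor, had 1129.9, 445 and 1420.2 normalised reads and was not separated from the median gene (log2 difference 2.94, adjusted p = 0.0686, limma). It was above without mouse 2, its lowest mouse (log2 difference 3.80, adjusted p = 0.0409, limma). The 10 alternatives spanned adjusted p-values of 0.0325 to 0.261 (limma). The alpha receptor Adra2b had 18.5, 234 and 19.0, the histamine receptor Hrh1 had 0, 107 and 106, and Adra1a was at 0 in every mouse.

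Prostanoid receptors were carried by Ptger4, a receptor for prostaglandin E2 that raises cyclic AMP, with 1365, 2067 and 795 normalised reads. It was highest in mouse 2 and lowest in mouse 3, and was not separated from the median gene (log2 difference 2.51, adjusted p = 0.0739, limma), while 3 of 10 alternatives called it (0.0370 to 0.313). Ptger1 had 3.23, 91.6 and 0 and lay below (log2 difference -3.51, adjusted p = 0.0447, limma). That call was lost in 8 of 10 alternatives, among them those without mouse 1 (adjusted p = 0.131) and without mouse 3 (adjusted p = 0.182), with a range of 0.0402 to 0.182. Ptger3 had 0.806, 1.11 and 0. Protease-activated receptors were low too, with the thrombin receptor F2r at 217, 1.11 and 5.64 and F2rl1 at 0, 1.11 and 0. F2r lay below the median gene without mouse 1 (adjusted p = 0.0388, limma, against 0.227 with all mice and 0.0388 to 0.724 over 10 alternatives). Mouse 1 held nearly all reads of F2r, so that call follows from its removal.

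Adhesion receptors have long outer domains that bind other cells or matrix, and of 13 tested among 14 genes, 1 lay above the median gene and 7 below, 5 of the 7 with a mean under 10. Adgre1, the macrophage antigen F4/80, had 45042, 16550.1 and 24426 normalised reads and lay 7.87 ± 0.99 (SE) log2 units above (adjusted p = 0.0127, limma). Adgre5, or CD97, had 2164, 64.4 and 2673, and Adgre4 had 441, 484 and 1.41. Each of these relatives was thus at a low level in 1 mouse, mouse 2 for Adgre5 and mouse 3 for Adgre4, while Adgre1 exceeded both in 3 of 3 mice per kb. Without mouse 2, its lowest mouse, Adgre5 lay above the median gene (log2 difference 4.57, adjusted p = 0.0393, limma). With all mice the adjusted p was 0.236, and over 10 alternatives 0.0393 to 0.544 (limma). The latrophilin Adgrl3 had 2054, 508 and 7.05, and Adgrl4, known from endothelium, was at 0 in every mouse. Adgrf5 had 4.84, 637 and 755, and the sum of 8 endothelial markers was 573, 133 and 1388, of which Kdr alone made up 453, 7.77 and 1345. Tek was at 0 and Pecam1 at most 4.84, and Emcn had 71.8, 99.3 and 38.1. The part of endothelial cells in Adgrf5 was not tested.

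Other Gpr-numbered genes, among them proteins of inner membranes, held 0 genes above the median gene and 6 below, of 16 tested among 18, and all 6 had a mean under 10. Gpr160 had 63.7, 1749 and 9274 normalised reads, Gpr141 had 26.6, 3315 and 5155, and Gpr19 had 4.84, 110 and 2873. All 3 were lowest in mouse 1 and highest in mouse 3, and none was separated from the median gene (adjusted p = 0.182, 0.351 and 0.862, limma). Gpr160 was above it without mouse 1, its lowest mouse (log2 difference 4.58, adjusted p = 0.0312, limma, range 0.0312 to 0.640 over 10 alternatives).

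Gpr155, a lysosomal membrane protein tied to cholesterol sensing, had 433, 411 and 5626 normalised reads. Gpr107, a protein of the Golgi, had 807, 2227 and 2988. Gpr180 had 2108, 201 and 867. It was above the median gene without mouse 2, its lowest mouse (adjusted p = 0.0452, limma). With all mice the adjusted p was 0.0645, and over 10 alternatives 0.0282 to 0.251 (limma). Gprc5c, the single class C orphan of the set, had 6.45, 67.2 and 1.41 and lay below the median gene (adjusted p = 0.0423, limma), a call lost in 7 of 10 alternatives, among them those without mouse 1 (adjusted p = 0.130) and without mouse 3 (adjusted p = 0.192), over a range of 0.0424 to 0.192. Both Mas-related genes, Mrgpre and Mrgpra2a, were at 0 in every mouse, as were Gpr21 and Gpr82. Gpr137b had 716, 452 and 615, and its pseudogene Gpr137b-ps had 0, 133 and 0, which is uncertain because reads of such copies are hard to assign.

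Per kb of exon, the order from the top among the genes described here was Gpr65, Lpar6, Adgre1, C3ar1, Gpr183, Gpr34, C5ar1, Cysltr1, P2ry6 and P2ry12. The means were 14656 ± 6224 normalised reads per kb for Gpr65, 10003 ± 4894 for Lpar6, 8855 ± 4544 for Adgre1 and 8709 ± 5329 for C3ar1. No neighbours in this order were separated by their ranges over mice. Within a library, however, Gpr65 exceeded Lpar6 in 3 of 3 mice, by 0.44, 0.59 and 0.69 log2 units, and Lpar6 exceeded Adgre1 in 3 of 3 mice. Lpar6 also exceeded Gpr34 in 3 of 3 mice, by 1.14, 0.63 and 1.02 log2 units.

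**Figure D3:**
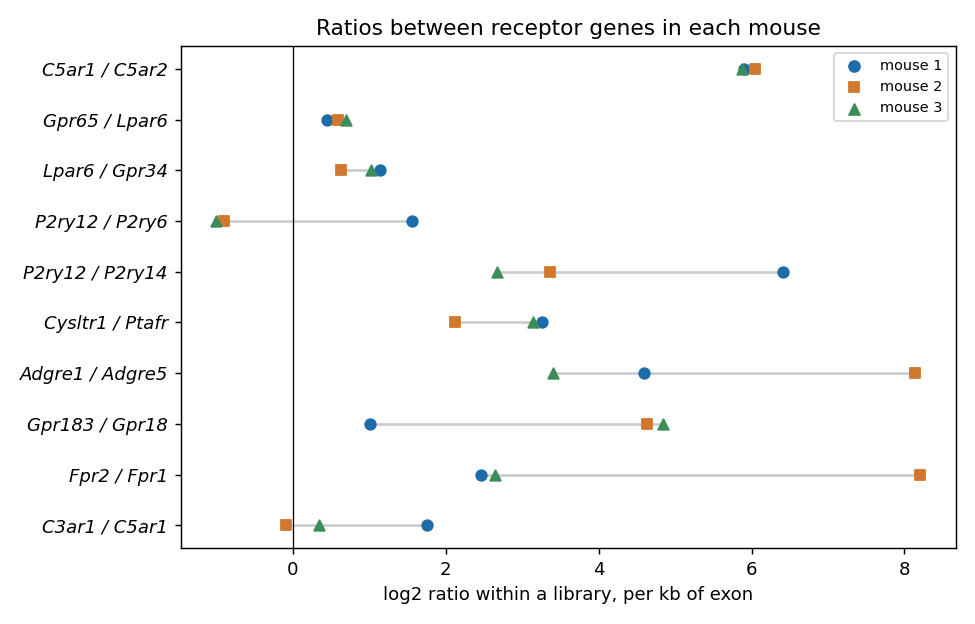
Log2 ratio of the first to the second receptor gene of each pair within a library, per kb of exon, with 1 point for each of 3 mice. The C5ar1/C5ar2 and Gpr65/Lpar6 ratios fall close together in the 3 mice, while P2ry12/P2ry6 and C3ar1/C5ar1 lie on both sides of 0.

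The receptors with high levels tended to share a ranking of mice. Of the 11 genes at 1000 or more in every mouse, 7 were highest in mouse 1, then mouse 3, then mouse 2 (63.6%), against 28.6% of the 2180 genes of all kinds that passed the same minimum. These were Lpar6, C3ar1, Gpr65, Adgre1, Cysltr1, Gpr34 and P2ry12. The total of normalised reads had the same ranking, at 41090917, 31477806 and 35696101 in mice 1, 2 and 3. With each library scaled to the same total, 7 of the 11 still had that order (63.6%), against 18.9% of all such genes. Gpr183 and P2ry6 were instead highest in mouse 3 and lowest in mouse 1 on both scales, and C5ar1 was so in normalised reads but highest in mouse 2 once libraries had the same total. The median SD between mice of these 11 genes was 0.74 log2 units, against 0.61 for the 2180 genes, and 2 of the 11 stayed within 2-fold over mice (18.2%), against 41.3% of the 2180. Those 2 were C5ar1 and Gpr34.

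Receptor genes that reached 10 normalised reads in only some mice most often did so in mouse 2 alone. Of 25 receptor genes that reached 10 in some mice only, 12 did so in mouse 2 alone (48.0%), 2 in mouse 1 alone and 3 in mouse 3 alone, and 8 in 2 mice. Of all 5769 genes of this kind, 29.8% did so in mouse 2 alone. The 12 were P2ry1, P2ry13, Lpar2, Lpar3, Ptger1, Adgrv1, Adgrg1, Gprc5c, Gpr89, Gpr137, Gpr137c and Gpr137b-ps. Mouse 2 was also the library with the largest sum of tubular epithelial markers, led by Kap, an androgen-regulated gene of the proximal tubule, at 35490.3, 172061 and 13511 in mice 1, 2 and 3. The part of tubular RNA in these 12 genes was not tested.

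**Figure D4:**
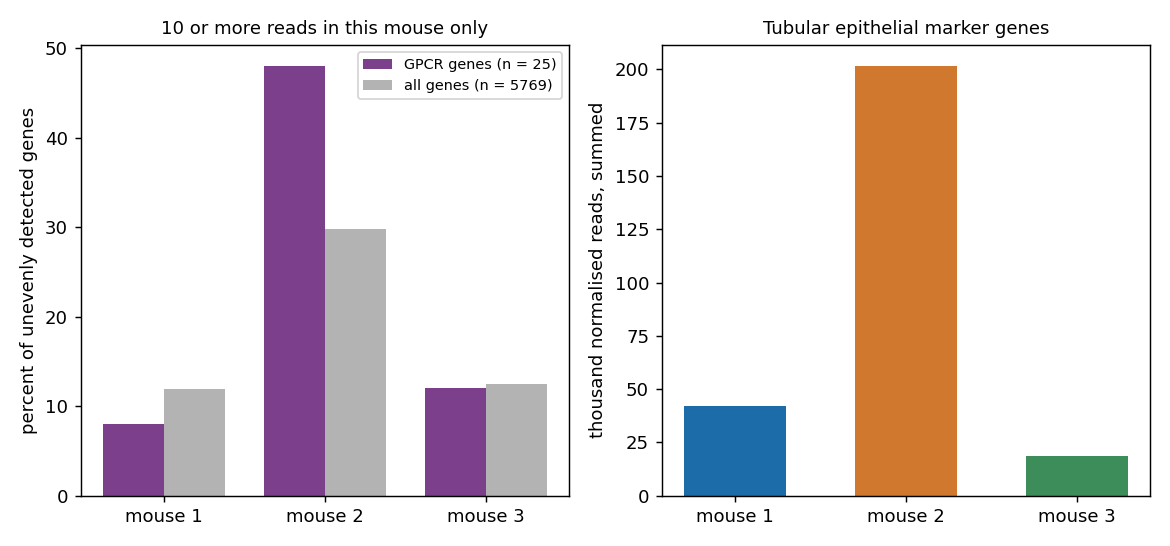
Left, percent of the genes that reached 10 normalised reads in some mice only and did so in 1 given mouse alone, for GPCR genes and for all genes. Right, the summed normalised reads, of 10 tubular epithelial marker genes in each mouse, with mouse 2 at 201518 above both other mice.

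Several receptor genes lie inside another gene on the opposite strand. In the GENCODE M21 annotation, 12 of the 73 (16.4%) were inside the span of a protein-coding gene, against 8.92% of all listed genes. Among those at 1000 or more in every mouse it was 4 of 11 (36.4%), against 3.21% of all genes at that level. Lpar6 lies inside Rb1 on chromosome 14, Gpr34 with Gpr82 inside Cask on chromosome X, Gpr183 with Gpr18 inside Ubac2 on chromosome 14, and P2ry12 with P2ry13, P2ry14 and Gpr171 inside Med12l on chromosome 3. Each of these receptors runs on the strand opposite to its host.

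Levels inside 1 host differed widely in Med12l and Cask, and in Ubac2 less so in mouse 1 than in mice 2 and 3. Per kb of exon, P2ry12 had 3675, 914 and 1687 normalised reads in mice 1, 2 and 3, P2ry14 had 42.2, 88.1 and 264, P2ry13 had 0, 37.5 and 0, and Gpr171 had 0, 0.249 and 0. Their host Med12l had 0, 4.0 and 1.55 and lay below the median gene (log2 difference -3.89, adjusted p = 0.0238, limma). Gpr34 had 6907, 3520.3 and 4635, its neighbour Gpr82 was at 0 in every mouse, and the host Cask had 31.9, 1.88 and 0.539. Gpr183 had 4438, 7245 and 9052, Gpr18 had 2201, 292 and 316, and the host Ubac2 had 356, 40.8 and 669. Lpar6 had 15181, 5455 and 9374 and its host Rb1 had 758, 449 and 727, so receptor exceeded host in 3 of 3 mice by 4.32, 3.60 and 3.69 log2 units.

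**Figure D5:**
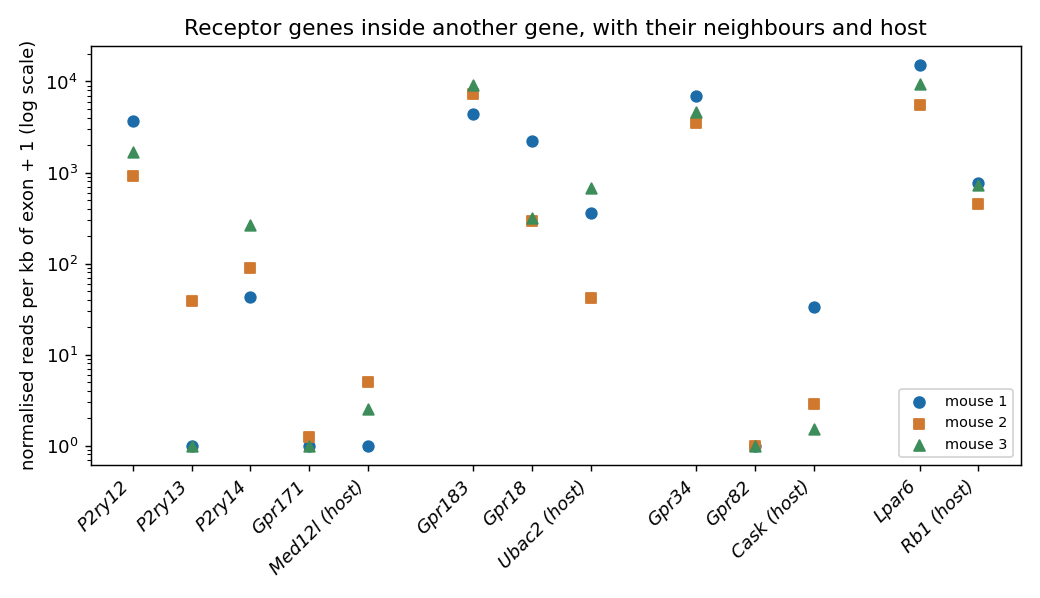
Normalised reads per kb of exon plus 1, on a log axis, for receptor genes that lie inside another gene, followed by that host gene, with 1 point for each of 3 mice. P2ry12, Gpr183, Gpr34 and Lpar6 lie above their host in every mouse, whereas Gpr171 and Gpr82 are at or near the bottom of the axis. P2ry13 is at the bottom in mice 1 and 3 and at 37.5 per kb in mouse 2.

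The 150 bases before the start of transcription are shown for 2 pairs of such neighbours, P2ry12 with P2ry13 and Gpr183 with Gpr18. The members of a pair share host and strand but differ in level, for Gpr183 and Gpr18 by only 1.01 log2 units in mouse 1. Gpr34 and Gpr82 differ in level too, but Gpr34 had no promoter entry. The P2ry14 start that holds the motif is added as a lower neighbour in Med12l. Sequences are from RefSeq on build GRCm38.p6 and read 5′ to 3′ on the receptor's strand, and capitals mark GGAAGT or its reverse complement ACTTCC, the core bound by ETS factors such as the macrophage regulator PU.1. The positions are chr3:59262986-59263135 for P2ry12, chr3:59210883-59211032 for P2ry13, chr3:59131119-59131268 for P2ry14, chr14:121965194-121965343 for Gpr183 and chr14:121915889-121916038 for Gpr18, all on the minus strand.
P2ry12: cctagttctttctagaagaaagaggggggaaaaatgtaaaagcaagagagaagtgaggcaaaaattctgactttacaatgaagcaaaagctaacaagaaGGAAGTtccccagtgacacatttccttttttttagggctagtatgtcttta
P2ry13: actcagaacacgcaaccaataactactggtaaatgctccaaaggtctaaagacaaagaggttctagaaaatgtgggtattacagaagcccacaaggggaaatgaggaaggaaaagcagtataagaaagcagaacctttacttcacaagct
P2ry14: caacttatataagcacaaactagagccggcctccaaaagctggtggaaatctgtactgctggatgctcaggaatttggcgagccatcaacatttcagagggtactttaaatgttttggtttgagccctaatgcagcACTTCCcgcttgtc
Gpr183: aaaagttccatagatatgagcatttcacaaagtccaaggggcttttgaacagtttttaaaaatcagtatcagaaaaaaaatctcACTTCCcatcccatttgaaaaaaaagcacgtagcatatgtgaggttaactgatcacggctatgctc
Gpr18: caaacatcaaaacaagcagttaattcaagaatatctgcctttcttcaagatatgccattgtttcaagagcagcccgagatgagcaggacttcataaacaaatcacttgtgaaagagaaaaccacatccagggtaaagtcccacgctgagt

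In these windows P2ry12 and Gpr183 had 1 copy of the motif and P2ry13 and Gpr18 had 0. The lower P2ry14 had 1 copy at 1 of its 4 listed starts, and Lpar6, C3ar1 and Gpr65, the receptors with the most reads, had 0. Over the table's windows of 300 bases, from 250 before the start to 50 after it, GGAAGT on either strand was found at 26.5% of 27025 genes and at 20 of the 56 receptor genes with an entry (35.7%). Of the 11 receptor genes at 1000 or more in every mouse, 6 had an entry and 3 of those held the motif. A match describes the letters of a window and is not a site of binding.

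The signalling partners of the receptors were read in the same libraries. The counts by list stand against 19.2% above and 17.1% below among all genes tested. Of 10 tested G protein alpha subunits, 5 lay above the median gene and 0 below. They were Gnaq (5145 ± 1939), Gnai2 (4702 ± 3931), Gnai3 (3242 ± 2098), Gna13 (3052 ± 1962) and Gna12 (2469 ± 992), of which Gnai2 and Gnai3 encode inhibitory subunits. Gnas, the stimulatory subunit through which Gpr65 acts, had 481, 280.3 and 567 and was not separated from the median gene (adjusted p = 0.905, limma). Its level per kb, a mean of 39.6, was taken over all annotated exons, so any alternative exons lower it. Of 10 beta and gamma subunits, 4 lay above and 2 below, with Gngt2 (13512 ± 4414), Gng5 (8344 ± 1209.6) and Gng2 (7549.5 ± 2772) highest.

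Among arrestins and receptor kinases, which end signalling, 3 of 7 lay above and 1 below. Those above were the kinases Adrbk2 (6999 ± 3980) and Adrbk1 (1241 ± 72.7) and the arrestin Arrb2 (3813 ± 995), while Arrb1 (702 ± 890.4) was not separated from the median gene. RGS proteins speed up the shut-off of G proteins, and 3 of 8 lay above and 1 below. Rgs2 had 38623, 21038 and 30819.8 normalised reads, Rgs10 had 12562, 13293 and 10958, and Rgs19 had 8748, 7129 and 10265. All 3 exceeded 1000 in each mouse, whereas the next gene of the list, Rgs14, had 0.806, 829 and 0.705. Of 6 tested adenylyl cyclases and phospholipase C beta genes, 1 lay above and 1 below, and the one above was Adcy7 at 35409.7, 7778 and 10435.

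Of 21 tested enzymes that make or remove receptor ligands, 7 lay above the median gene (19.2% of all genes tested) and 5 below (17.1% of all). Besides Ch25h and Entpd1, Alox5ap, which feeds leukotriene synthesis, was above with 20699.7, 23553 and 18755 normalised reads. Lpcat2, which makes platelet-activating factor, had 5615, 5838 and 3421. The constitutive cyclooxygenase Ptgs1 had 4855, 1649 and 5087, whereas the inducible Ptgs2 had 2.42, 0 and 0. Of 12 GPCR genes outside the name stems that were tested, Calcrl (3043 ± 1186), which serves peptides of the calcitonin family, was the 1 above the median gene, and 2 lay below.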

How the data were processed

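One table of the series was used. The authors deposited a normalised signal per gene and mouse: per the submitters' processing notes, reads were counted with HTSeq 0.5.4 and scaled with DESeq 1.18.0 on build mm9, while no source used here names the aligner, annotation or row filter. Per the labels' protocols, kidneys were digested for 30 min at room temperature, cDNA was amplified with a SMART-seq kit, and libraries were made from 10 ng of cDNA with 8 cycles of PCR, without molecular identifiers, so counting floors cover counting error only.

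The lowest deposited value was 1 in every library, so 1 was subtracted. The remainders were whole multiples of 1 step per library in 100% of values (tolerance 0.05 of a step), which gave the reads, and the floor of 3 reads was 2.42, 1.66 and 2.11 normalised reads in mice 1, 2 and 3. Exon lengths came from GENCODE M21 by gene identifier (99.6% of rows, all 73 receptors), as the union of all annotated exons of a gene. M21 belongs to a build other than mm9, and was used for lengths, overlaps and nesting only. The strand setting of the counting is not given, so reads of Gpr65, Lpar6, Ptger1, Adgre5, Gpr89 and others that share exon bases with antisense genes cannot be told from those of their partners.

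Log2(normalised reads per kb + 1) minus the library median over tested genes was tested against 0 with limma 3.58.1 in R 4.3.3 (intercept only, two-sided, Benjamini-Hochberg over 13792 genes, threshold 0.05), after a check on simulated data. The mice are separate animals per the labels. Other steps used Python 3.11.15, pandas 2.3.3 and matplotlib 3.10.9. Genes named with values were the 25 receptors with the highest means, the 3 highest of each role, members of the named families at a mean of 10 or more, and from the signalling lists their highest genes with a few set partners such as Entpd1, Nt5e, Ptgs1, Ptgs2 and Gnas. Further genes, among them Adgre4, Adgrf5, Gpr132, Gpr137b, Gpr137b-ps, S1pr1, Lpar2, Ptger3, Arrb1, Gna12, Gna13, Rgs14, Lpcat2, Cyp7b1, Hsd3b7, the host genes and single markers, were chosen after their values were seen. A receptor gene is not reported here, though it is part of the counts and shares. The receptors, lists and roles were chosen with earlier results of these data known.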

Additional observations from a re-analysis of the deposited data

How the results depend on the processing

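The count of receptor genes above the median gene stayed within 1.5 times of its value of 13 in every alternative run, at 11 to 16 (12 to 15 with a mouse left out). The count below it, 20, fell to 13 with a pseudocount of 10 and to 2 when only genes with a mean of 10 or more were tested, which removes most of the genes it counts, and it was 15 to 22 with a mouse left out. The number of receptor genes at 0 in every mouse was 10 to 19 with a mouse left out, against 9 with all, and the 19 came without mouse 2. The number at 1000 or more in every mouse was 12 to 14, and that at 10 or more was 29 to 34, with a mouse left out. The median SD of genes at 1000 or more, 0.74 log2 units, was 0.65 with libraries scaled to 1 total, 0.82 with a minimum of 100 and 0.74 with a pseudocount of 10.

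Of 408 values of single genes under these alternatives, 350 kept direction and call, 28 lost a call, 18 gained one and 12 changed sign, none of them with a call before or after. These were S1pr2 (0.17 with a pseudocount of 10, 0.37 without a filter, 0.89 without division by length, and -2.32 to 0.89 with a mouse left out), Gpr19 (-0.81 with a mean of 10 or more, -1.93 to 2.30 with a mouse left out), Adgrl3 (0.79 without division by length, -2.63 to 0.60 with a mouse left out), C5ar2 (-0.039 with a mean of 10 or more), Fpr1 (-4.70 to 0.42 with a mouse left out) and Gpr31b (-2.16 to 0.42 with a mouse left out). The cause was not tested. The planned edgeR alternative was not run: whole reads could be recovered once 1 was subtracted, but the deposited values are a scaled signal with an added 1 and were analysed as such. No paired analysis was possible because the study has a single group. In the 19 receptor genes below 10 normalised reads in every mouse, a few reads decide the level.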
